A study of Mus musculus with 6 samples.

Results

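RNA of 9 enzymes was followed in mouse T cells: citrate synthase (Cs), the isocitrate dehydrogenases Idh3a, Idh3b, Idh1 and Idh2, and Ogdh, Sucla2, Fh1 and Mdh2. They were chosen by name as enzymes of the tricarboxylic acid cycle, in the order of its steps, together with the cytosolic isocitrate dehydrogenase Idh1. They make up 9 of the 56748 genes in the table, and all 9 had enough counts to be among the 14936 genes tested. The cycle runs in the mitochondrial matrix, where it condenses acetyl-CoA with oxaloacetate to citrate and oxidises it stepwise back to oxaloacetate, passing electrons to the respiratory chain. Its intermediates also leave the matrix, citrate for lipid synthesis and 2-oxoglutarate as a cosubstrate of enzymes that demethylate DNA and histones. T cells that have been activated draw on it while they also run a high rate of glycolysis.

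The cells were wild-type naive CD4 T cells, labelled as splenocytes and by the study's methods taken from spleen and lymph nodes of mice aged 6 to 10 weeks, and cultured toward regulatory T cells (Treg) for 3 days. Either scrambled antisense oligonucleotides (scramble ASO) or ones directed at phosphoglycerate mutase (anti-PGAM ASO) were in the medium at 10 μM from the start. By the study's account the latter target isoforms of this enzyme, which acts in glycolysis upstream of pyruvate. The cells were not sorted before RNA was taken. Polyadenylated RNA was sequenced from 3 libraries of each group, which are numbered 1 to 3 in the labels. The study calls them biological replicates, and nothing in the labels says whether they came from separate animals, so the p-values measure the spread between these libraries. Total counts lay between 15860476 and 18032805 per library. Levels are given as CPM, counts per 1000000 counts after scaling for library composition, and a gene was called where its adjusted p was under 0.05.

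The target was read first. Pgam1, the main form of the enzyme outside muscle, stood at 599.6, 478 and 707 CPM in the libraries labelled scramble ASO and at 658, 661 and 707 CPM in those labelled anti-PGAM ASO. The groups overlapped, and the log2 fold change was 0.18 ± 0.13 (SE; adjusted p = 0.331). It was 0.05 without scramble replicate 2 (adjusted p = 0.793) and 0.33 without scramble replicate 3 (adjusted p = 0.0528), the range of its alternatives. Pgam2, the muscle form, had 5.23, 6.75 and 2.85 CPM against 2.98, 2.69 and 2.60 CPM, again with overlap (log2 fold change -0.84 ± 0.31 SE, adjusted p = 0.0854). Pgam2 was called without scramble replicate 3 (log2 fold change -1.11, adjusted p = 0.0144) and, with all libraries, where no filter on low counts was used (-0.83, adjusted p = 0.0292). It was not called in the other alternatives, and without scramble replicate 2 it was at its weakest (-0.56, adjusted p = 0.286). Neither transcript passed the threshold in the main comparison, and groups are named by their labels throughout. These values are of RNA, and the protein was not measured in these files. Pgam1 shares 37.1% of its stretches of 31 bases with the pseudogene Pgam1-ps2, which held 749 counts over all libraries against 63765 for Pgam1.

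The labelled cell type was visible in every library. Cd4, the coreceptor that defines these cells, lay between 650.2 and 804 CPM. All 5 CD4 T cell markers (Cd3d, Cd3e, Cd3g, Cd4, Cd28) were lower in each library labelled anti-PGAM ASO than in any labelled scramble ASO, and 1 of them, the costimulatory receptor Cd28, was called. Their summed level was 1867, 2032 and 1724 CPM against 1399.9, 1475 and 1549 CPM. Over all 14936 tested genes, 2964 were likewise lower in each library labelled anti-PGAM ASO than in any labelled scramble ASO. Foxp3, the transcription factor that defines Treg, stood at 282, 371 and 222 CPM against 89.7, 109 and 131 CPM. It was called lower, as was Ikzf2, while the interleukin-2 receptor chain Il2ra was called higher and Ctla4 was not called. The calls of Ikzf2 and Il2ra were lost without scramble replicate 1, anti-PGAM replicate 1 or anti-PGAM replicate 2, and that of Ikzf2 also without scramble replicate 2, with adjusted p up to 0.139 and 0.0967. The part of these shifts in the results on the cycle was not tested. In bulk RNA, fewer cells of a type and less RNA per cell cannot be told apart.

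Of the 9 members, 4 were called higher and 0 lower in the libraries labelled anti-PGAM ASO: Cs, Idh3a, Fh1 and Mdh2. Over all tested genes, 17.2% were called, 8.03% higher and 9.15% lower. In 7 of the 9 members every library labelled anti-PGAM ASO lay above every library labelled scramble ASO, a separation found in 19.6% of all tested genes. All 9 fold changes were positive, with a median log2 fold change of 0.34 and a range from 0.06 to 0.56. The members were chosen with earlier results of these data known, so these counts are not an independent result about the cycle. Over all tested genes 49.4% were positive and the median was -0.01. The summed level of the 9 members was 1151, 1055 and 1232 CPM against 1523, 1460.0 and 1373 CPM. The 0 members called lower by edgeR came with 0 lower at an unadjusted p under 0.05, and DESeq2 and limma also called 0 lower.

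**Figure D1:**
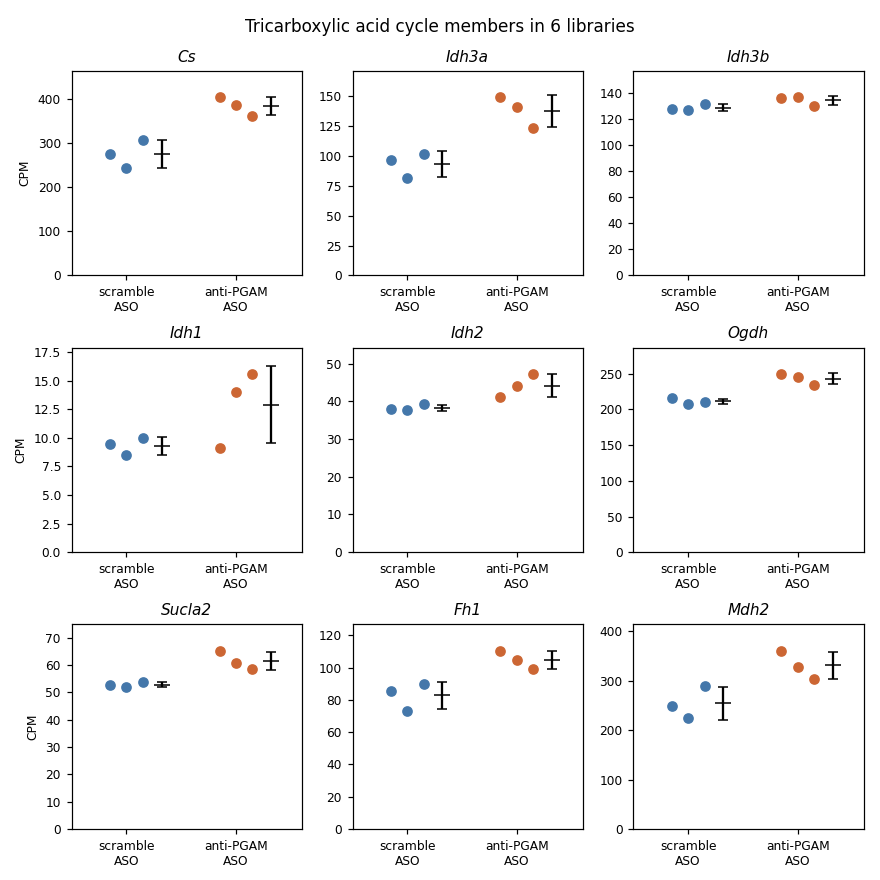
Level of each of the 9 members in CPM (vertical axes, from 0) in the 3 libraries labelled scramble ASO (blue) and the 3 labelled anti-PGAM ASO (orange), with the group mean and SD in black. The groups are apart for 7 members and overlap for Idh3b and Idh1.

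The number of members called depended on single libraries. Leaving out scramble replicate 1 left 1 member called (Idh3a), leaving out scramble replicate 2 left 2 (Cs and Idh3a), and leaving out anti-PGAM replicate 1 left 2 (Idh3a and Idh1). Without anti-PGAM replicate 2 no member was called: the count was 0 by edgeR, with 4 members higher at an unadjusted p under 0.05. The share of all tested genes called in either direction moved too, to 4.02%, 8.22%, 5.60% and 2.51% in these same fits. Genes called higher numbered 223, 496, 327 and 160 in them, against 1199 with all libraries. Leaving out either replicate 3 kept Cs, Idh3a, Fh1 and Mdh2. Those fits called 22.5% of all tested genes in either direction (1711 higher) without scramble replicate 3. Without anti-PGAM replicate 3 the share was 21.5% (1576 higher). All 9 fold changes stayed positive in each of the 6 fits.

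Citrate synthase forms citrate at the entry to the cycle, and its gene Cs (ENSMUSG00000005683) lies at chr10:128337734-128362479 of build GRCm38. Cs was measured at 276, 244 and 306 CPM in the libraries labelled scramble ASO and at 403, 386 and 362 CPM in those labelled anti-PGAM ASO. The lowest library of the second group was above the highest of the first. Cs was 1.39-fold higher (log2 fold change 0.48 ± 0.10 SE, adjusted p = 0.0138). The gene shares 4.33% of its 31-base stretches with the related gene Csl, the largest overlap of any member with another gene.

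The mitochondrial NAD-dependent isocitrate dehydrogenase is built from the products of Idh3a, its catalytic subunit, and of Idh3b and Idh3g. Idh3a (ENSMUSG00000032279, chr9:54586334-54604661) stood at 96.8, 81.5 and 102 CPM against 149, 141 and 123 CPM. No library of one group reached the range of the other, and Idh3a had the largest fold change of the 9 members (1.47-fold, log2 fold change 0.56 ± 0.11 SE, adjusted p = 0.0108). Idh3b had 128, 127 and 132 CPM against 136, 137 and 130.2 CPM. Those groups overlapped, since anti-PGAM replicate 3 lay below scramble replicate 3. Its log2 fold change was 0.06 ± 0.07 (SE; adjusted p = 0.590), with an unadjusted 95% interval from -0.10 to 0.23. The third subunit, Idh3g, had a log2 fold change of -0.04 ± 0.08 (SE; adjusted p = 0.750) with overlapping groups.

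Idh1 in the cytosol and Idh2 in the matrix make 2-oxoglutarate with NADP as the acceptor. Idh1, the least abundant member, had 9.45, 8.48 and 9.98 CPM against 9.13, 14.1 and 15.6 CPM, from 147 to 263 counts per library. Anti-PGAM replicate 1 lay within the range labelled scramble ASO, while the other two libraries of its group lay above it. The log2 fold change was 0.47 ± 0.20 (SE; adjusted p = 0.124), with an unadjusted 95% interval from 0.03 to 0.92. Without anti-PGAM replicate 1 it was 0.67 (adjusted p = 0.0428), and over all alternatives the adjusted p ran from 0.0428 to 0.324. Idh2 had 38.0, 37.6 and 39.2 CPM against 41.1, 44.1 and 47.2 CPM. These groups did not overlap, and the difference was not called (log2 fold change 0.21 ± 0.09 SE, adjusted p = 0.143, unadjusted 95% interval from 0.00 to 0.41).

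Ogdh encodes the first subunit of the 2-oxoglutarate dehydrogenase complex, and Sucla2 the ADP-forming subunit of succinyl-CoA ligase. Ogdh was at 216, 208 and 210.2 CPM against 249, 245 and 234 CPM, and Sucla2 at 52.6, 51.9 and 53.9 CPM against 65.0, 60.6 and 58.6 CPM. Both were higher in every library labelled anti-PGAM ASO, with narrow spreads within groups. Neither was called: the log2 fold change was 0.20 ± 0.08 (SE; adjusted p = 0.0892) for Ogdh and 0.22 ± 0.08 (SE; adjusted p = 0.0955) for Sucla2.

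Fumarase (Fh1) hydrates fumarate to malate, and Mdh2 oxidises malate to oxaloacetate in the matrix. Fh1 (ENSMUSG00000026526, chr1:175600374-175625635) had 85.4, 73.4 and 89.8 CPM against 110.2, 105 and 99.1 CPM. Mdh2 (ENSMUSG00000019179, chr5:135778480-135790398) had 249, 223 and 289 CPM against 359, 328 and 304 CPM. In both genes the groups were apart, with scramble replicate 3 the closest to the other group. Fh1 was 1.26-fold higher (log2 fold change 0.34 ± 0.10 SE, adjusted p = 0.0387) and Mdh2 1.30-fold higher (log2 fold change 0.38 ± 0.11 SE, adjusted p = 0.0401). Each call was lost in 4 of the 6 fits that left out 1 library (both replicates 1 and both replicates 2), with adjusted p from 0.0900 to 0.136 for Mdh2 and from 0.0967 to 0.135 for Fh1.

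**Figure D2:**
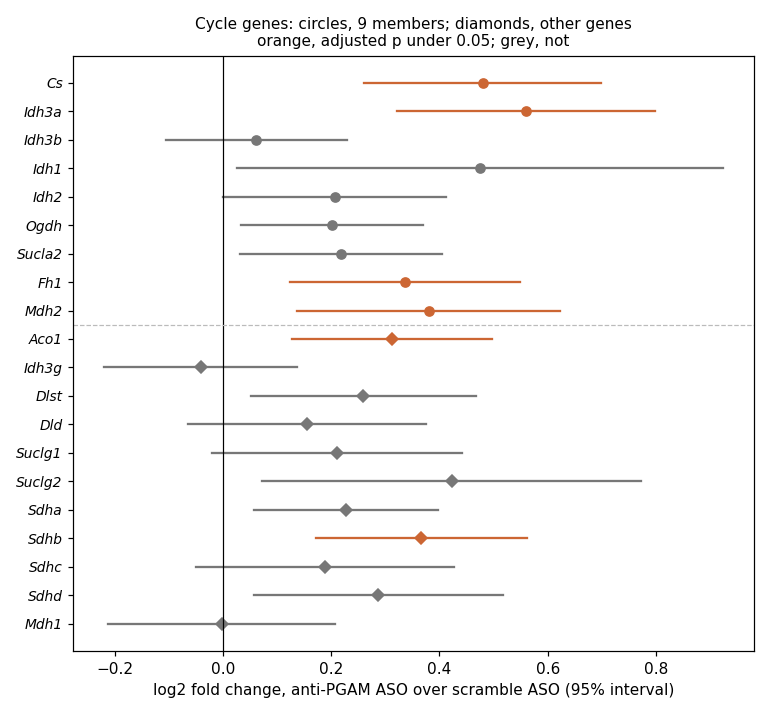
Log2 fold change (horizontal axis, anti-PGAM ASO over scramble ASO) with its unadjusted 95% interval for the 9 members (circles) and 11 other cycle genes that were tested (diamonds). Orange marks an adjusted p under 0.05, which 4 members and 2 of these other genes reached, all to the right of 0.

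Promoter windows of RefSeq were at hand for 8 of the 9 members, 14 windows of 300 bases in all, and Idh3a had no entry. The 4 motifs were searched on both strands: the E-box (CACGTG), the NRF-1 core (GCATGCGC), the ETS core (CCGGAAGT) and the cyclic AMP response element (TGACGTCA). Of 32851 promoters, 7.15%, 2.71%, 3.89% and 1.79% held them. The cyclic AMP response element was found in Mdh2 and in 3 overlapping windows of Ogdh. Other windows of Ogdh held the E-box, and 2 of these the NRF-1 core as well. The other 6 members with an entry, Cs and Fh1 among them, held none of these letters in their windows. The starts here are those of RefSeq, which differ from the gene starts of GENCODE M21. The match in Mdh2 lay before the RefSeq start but after the GENCODE start, within the first exon of a transcript, so its sequence is not shown. The E-box and NRF-1 core matches of Ogdh likewise all lay after its GENCODE start. The 250 bases before the first RefSeq start of Ogdh, which was not called, are shown (build GRCm38.p6, chr11:6291347-6291596, plus strand), with the match in capitals 51 bases before that start and before the GENCODE start. A match is a description of the sequence and was not tested for binding.
Ogdh: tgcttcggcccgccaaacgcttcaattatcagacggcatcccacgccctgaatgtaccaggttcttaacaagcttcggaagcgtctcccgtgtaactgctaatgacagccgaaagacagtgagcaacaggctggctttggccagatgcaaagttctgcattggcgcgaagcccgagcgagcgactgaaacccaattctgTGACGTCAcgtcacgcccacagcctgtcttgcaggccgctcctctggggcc

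Within each group, the same libraries were low or high for most members. Scramble replicate 2 was the lowest of its group for 9 of 9 members, against 40.6% of all tested genes. Scramble replicate 3 was the highest of its group for 8 of 9 members, against 38.6% of all tested genes. Anti-PGAM replicate 1 was the highest of its group for 6 members, the exceptions being Idh3b, Idh1 and Idh2, against 36.9% of all tested genes. Anti-PGAM replicate 3 held the lowest value of its group for 7 members, against 37.9% of all tested genes, and the highest for Idh1 and Idh2.

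**Figure D3:**
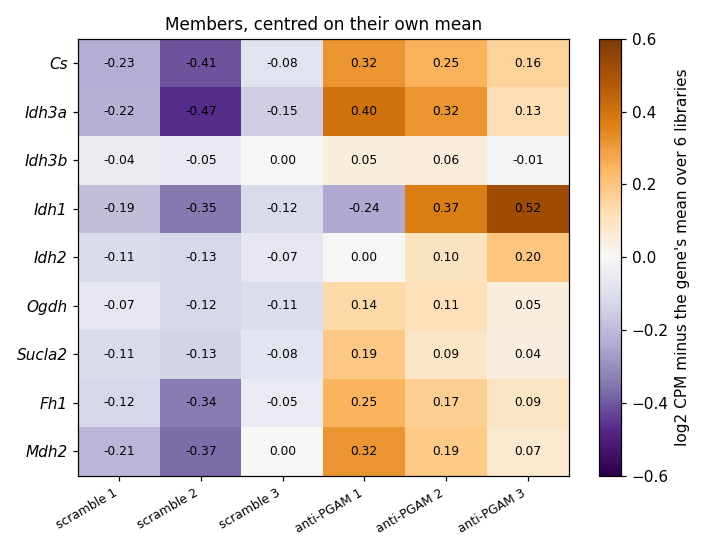
Log2 CPM of each member minus its mean over the 6 libraries (colour and printed values), with libraries in columns. Scramble replicate 2 holds the lowest value in every row, down to -0.47 for Idh3a, and Idh1 is the member for which anti-PGAM replicate 1 (-0.24) lies with the libraries labelled scramble ASO.

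By the root mean square difference of these centred log2 values over 6 libraries, the closest pair of members was Ogdh and Sucla2 (0.0323), followed by Fh1 and Mdh2 (0.0530) and Cs and Idh3a (0.0581). The most distant pair was Idh3b and Idh1 (0.315). The same measure gave each member its nearest gene among the other tested genes with a mean of at least 4 log2 CPM. Cs lay nearest to the adenylate kinase gene Ak6 (0.0160), Idh3a to Rrm2, a subunit of ribonucleotide reductase (0.0284), and Mdh2 to sepiapterin reductase (Spr, 0.0195). Fh1 lay nearest to Sae1, a subunit of the SUMO-activating enzyme (0.0138), Idh3b to the clathrin adaptor gene Ap2b1 (0.0128) and Ogdh to the exosome gene Exosc5 (0.0161). Sucla2 was nearest to Mpzl3 (0.0184), Idh2 to Parvg (0.0186) and Idh1 to the survival gene Bcl2 at a larger distance (0.0847). These are likenesses over 6 libraries only.

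Per kilobase of transcript, with the median length of a gene's coding transcripts, Mdh2 was the most abundant member in the libraries labelled scramble ASO (392 ± 51.1 CPM per kb, SD, n = 3). Cs (94.0 ± 10.7) and Idh3b (79.7 ± 1.65) followed, in ranges that did not overlap. Fh1 (52.2 ± 5.35) and Ogdh (51.6 ± 0.984) did not differ beyond their spread. Idh3a (37.5 ± 4.25) overlapped with both Idh2 (35.8 ± 0.764) and Sucla2 (34.2 ± 0.657), whose own ranges lay apart. Idh1 was last, between 11.2 and 13.2 CPM per kb. The order of the means was the same in the libraries labelled anti-PGAM ASO, from 509.9 ± 43.1 for Mdh2 to 17.1 ± 4.45 for Idh1. With the longest coding transcript in place of the median, Mdh2 (174 CPM per kb), Cs and Idh3b kept the first 3 places and Idh1 (4.04 CPM per kb) the last, while Fh1 (31.4 CPM per kb) fell behind Ogdh and Idh3a, and Sucla2 (23.7 CPM per kb) passed Idh2 (21.9 CPM per kb).

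Ratios of 2 enzymes within a library do not depend on its scaling. All 6 were tested by an exact two-sided permutation test, for which 0.1 is the smallest p that 3 against 3 libraries can give, and 5 are given here. Idh3b over Idh3a, on the log2 scale, was 0.40, 0.64 and 0.37 in the libraries labelled scramble ASO and -0.13, -0.04 and 0.08 in those labelled anti-PGAM ASO. It was lower in each library of the second group, by a mean difference of -0.50 (exact p = 0.1, adjusted p = 0.2). Idh2 over Idh3a also separated the groups (-1.35, -1.12 and -1.38 against -1.86, -1.67 and -1.39; difference -0.36, exact p = 0.1, adjusted p = 0.2). The third ratio without overlap was the cytosolic Mdh1 over Mdh2, at -0.38, -0.42 and -0.50 against -1.03, -0.77 and -0.65 (difference -0.38, exact p = 0.1, adjusted p = 0.2). Mdh1 itself had a log2 fold change of 0.00 (adjusted p = 0.990), a value whose sign differed between the alternatives.

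In 2 further ratios the groups overlapped. Idh1 over Idh2 differed by 0.24 (exact p = 0.4, adjusted p = 0.4), a difference of 0.42 without anti-PGAM replicate 1, 0.16 without anti-PGAM replicate 2 and 0.13 without anti-PGAM replicate 3. Sucla2 over Suclg2, the ADP-forming over the GDP-forming subunit of succinyl-CoA ligase, differed by -0.23 (exact p = 0.3, adjusted p = 0.36), and scramble replicate 2 stood apart in it at 0.93. Without that library the difference was -0.04.

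**Figure D4:**
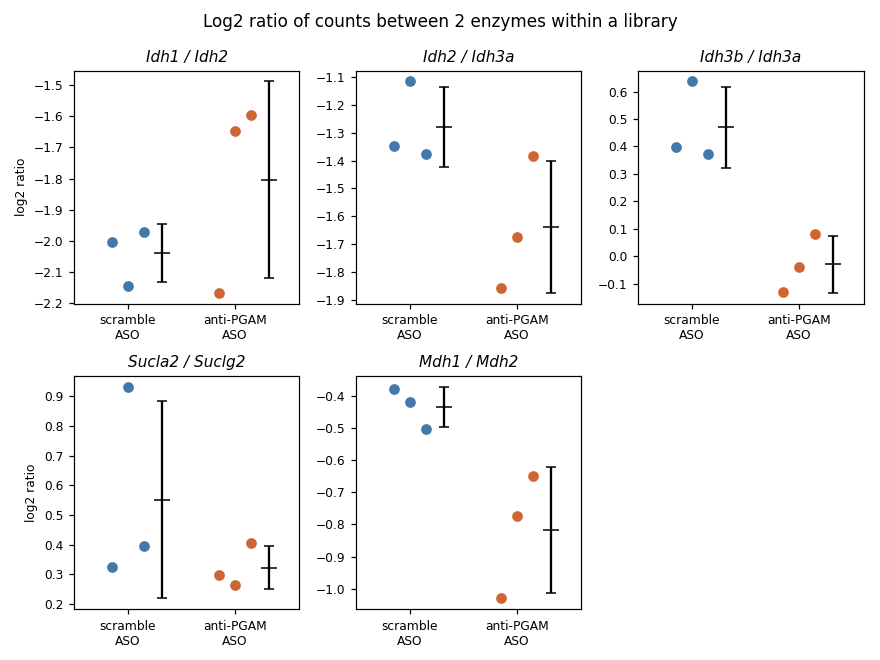
Log2 ratio of the counts of 2 enzymes in each library (points; blue, scramble ASO; orange, anti-PGAM ASO), with the group mean and SD in black; the vertical axes differ between panels. The groups are apart for Idh2 over Idh3a, Idh3b over Idh3a and Mdh1 over Mdh2.

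Of 13 other genes of the cycle, 12 were tested, 3 called higher and none lower. Their fold changes were positive for 10 and negative for 2, Idh3g and Mdh1, both near 0. Sdhb, the iron-sulfur subunit of succinate dehydrogenase, had 99.3, 88.0 and 105 CPM against 124, 128 and 126 CPM (log2 fold change 0.37 ± 0.09 SE, adjusted p = 0.0230). The groups were apart, with scramble replicate 2 again lowest. Aco1, a cytosolic enzyme, differed by 0.31 ± 0.08 on the log2 scale (SE; adjusted p = 0.0321). Both calls were lost without either replicate 1 or either replicate 2, with adjusted p up to 0.110 for Sdhb and 0.138 for Aco1. The median log2 fold change of the 12 was 0.24, against 0.34 for the members. Suclg2 had 42.0, 27.2 and 41.0 CPM against 52.9, 50.4 and 44.3 CPM and was not called (log2 fold change 0.42 ± 0.16 SE, adjusted p = 0.0871). Without scramble replicate 2 its log2 fold change was 0.24 (adjusted p = 0.177), and with no filter on low counts it was called (adjusted p = 0.00327), in a range up to 0.226 over its alternatives. Ogdhl was not tested for want of counts.

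Around the cycle, 13 of 14 genes of pyruvate entry and its control were tested, with 2 called higher and 2 lower. The fall was largest for Pdk2, a kinase that inhibits pyruvate dehydrogenase, at 9.62, 16.8 and 6.82 CPM against 2.86, 3.27 and 4.62 CPM (log2 fold change -1.63 ± 0.34 SE, adjusted p = 0.0147). Without anti-PGAM replicate 1 or 2 the adjusted p of Pdk2 was 0.0530 and 0.0827. The related kinases Pdk1 and Pdk3 were more abundant, and neither was called. Mean Pdk1 was 284 against 153 CPM (log2 fold change -0.89, adjusted p = 0.0894), with the groups apart. Mean Pdk3 went the other way, 62.9 against 73.2 CPM (0.22, adjusted p = 0.0899), also with the groups apart. Pdpr, a regulatory subunit of the phosphatase that opposes the kinases, was also lower (-0.41, adjusted p = 0.0374), and the phosphatase Pdp2 (0.42, adjusted p = 0.0461) and the binding protein Pdhx (0.40, adjusted p = 0.0374) were higher. These 3 calls were lost without either replicate 1 or either replicate 2, with adjusted p up to 0.137 for Pdpr, 0.189 for Pdp2 and 0.146 for Pdhx, and that of Pdp2 also by limma (0.0521) and with library size alone (0.0529). Of 15 genes that fill or drain the cycle, 12 were tested and 4 were called higher, Gpt2, Me1 and Acly among them. Gpt2, the mitochondrial alanine transaminase, had 3.60, 3.89 and 5.76 CPM against 17.7, 17.8 and 15.1 CPM (log2 fold change 1.94 ± 0.20 SE, adjusted p = 0.000731), and it was called in all 14 alternatives. Acly, which splits exported citrate in the cytosol, had a log2 fold change of 0.53 (adjusted p = 0.00692), and 0.51 without anti-PGAM replicate 2 (adjusted p = 0.0552). Me1 rested on under 2 CPM in each library, and its call was lost whichever library was left out. Among 6 carriers of cycle intermediates, 5 were tested and 2 called higher, the dicarboxylate carrier Slc25a10 (0.48, adjusted p = 0.0236) and the aspartate-glutamate carrier Slc25a12 (0.36, adjusted p = 0.0191). Both carrier calls were lost without scramble replicate 1, anti-PGAM replicate 1 or anti-PGAM replicate 2, and that of Slc25a10 also without scramble replicate 2, with adjusted p up to 0.0842 for Slc25a10 and 0.0885 for Slc25a12. Over these 4 lists together, 11 of 42 tested genes were called higher and 2 lower, against 8.03% and 9.15% of all tested genes. The 11 fell to 2 without scramble replicate 1, 4 without scramble replicate 2, 2 without anti-PGAM replicate 1 and 1 without anti-PGAM replicate 2, and rose to 17 without scramble replicate 3. The share of all tested genes called in either direction was 4.02%, 8.22%, 5.60%, 2.51% and 22.5% in these fits. Genes called higher in the whole table numbered 223, 496, 327, 160 and 1711.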

How the data were processed

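RNA of 6 libraries, 3 per group by the sample titles, was analysed. The authors deposited estimated counts per Ensembl gene as whole numbers; the submitters' processing notes name kallisto (version not given in the sources used here) and the build GRCm38. Counts were compared with edgeR 4.0.16 in R 4.3.3 (quasi-likelihood test, robust, TMM scaling, its default filter on low counts), with Benjamini-Hochberg adjustment over all 14936 genes tested. Standard errors come from the F statistic. DESeq2 1.42.0 and limma 3.58.1 were alternatives, with other scalings, filters and thresholds, a replicate block and each library left out. Ratios used a prior count of 0.5, centred log2 CPM a prior count of 2. Transcript lengths and shared stretches came from GENCODE M21, which holds all 9 members but lacks 4675 of the 56748 gene identifiers in the table, so the authors may have counted on another annotation, with other lengths. The steps were tested on simulated data. Some items counted in the lists and 1 ratio are not reported here. No pair of libraries agreed within sampling noise. The members and lists were chosen with earlier results of these data known. Named genes were the members, the target, the genes of the ratios and each member's nearest gene. Of each list, at most 4 called genes were named by size of fold change. Pgam1-ps2 and Csl were named for shared sequence. Csl was named after its value was seen, as were Idh3g, Ogdhl, Pdk1, Pdk3 and the markers named with their lists.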

Additional observations from a re-analysis of the deposited data

How the results depend on the processing

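The 4 member calls, Cs, Idh3a, Fh1 and Mdh2, were made also by DESeq2 and limma, with RLE factors, with library size alone, without ribosomal and mitochondrial genes, without a filter and with at least 10 counts in every library. In simulated data DESeq2 made a larger share of false calls than edgeR. Those data were drawn with the spread that edgeR itself had estimated, so this does not rank the tools on the real counts. No member was called at an adjusted p under 0.01 or when a 2-fold difference was also required (0 in both). Leaving out 1 library gave 0 to 4 members called higher, 1 to 17 of the other cycle genes higher and 0 to 3 lower, and 160 to 1711 genes of the whole table higher and 231 to 1773 lower. Among all tested genes 1199 were called higher and 1366 lower; an adjusted p under 0.01 left 173 and 280, and the 2-fold requirement left 192 and 482. No filter gave 1832 higher. Of the other cycle genes, 11 higher and 2 lower, the stricter p left 2 and 0, the 2-fold requirement 2 and 1, and no filter gave 17 higher.

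The replicate block gave 480 higher and 755 lower genes in the whole table, 2 members (Cs and Idh3a), and 3 other cycle genes higher and 1 lower. With this block the calls of Sdhb, Aco1, Pdpr, Pdp2, Pdhx, Me1, Slc25a12, Ikzf2 and Cd8a were lost (adjusted p from 0.0571 to 0.103). The call of mt-Nd2 was lost with it as well. The numbers did not pair the libraries: deviations from the group means of same-numbered libraries correlated across genes at 0.05, -0.03 and -0.24, and not every library correlated best with its own number.

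The log2 fold change of Mdh1 lay near 0 and turned positive with DESeq2 (0.0025), limma (0.0020), RLE (0.0025), no filter (0.0083) and the replicate block (0.0013), and without 1 library ran from -0.080 to 0.065. The cause was not tested. The signs of the 6 ratio differences did not change with a prior count of 2 or with any library left out, though sizes did. Idh1 had the fewest counts of the members, 147 to 263 per library. Its spread was wider in the libraries labelled anti-PGAM ASO (SD 3.36 on a mean of 12.9 CPM) than in those labelled scramble ASO (0.76 on 9.30 CPM). The part of depth in this spread was not tested.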

Other observations

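Most mRNAs encoded in the mitochondrial genome, which specify subunits of the respiratory chain and ATP synthase, were lower in the libraries labelled anti-PGAM ASO. Of 13, 12 were tested, 9 were called lower and 0 higher, with a median log2 fold change of -0.67 (adjusted p by edgeR), while 9.15% of all tested genes were called lower. The levels of those called differed widely in the libraries labelled scramble ASO. Means there were 9443 CPM for mt-Co1, 42.2 CPM for mt-Co3 and 34.7 CPM for mt-Atp6. Sharing of sequence with other genes was not examined for these mRNAs, so their counts may not reflect their true levels. The call of mt-Co3 was lost without scramble replicate 2, anti-PGAM replicate 1, anti-PGAM replicate 2 or anti-PGAM replicate 3 (adjusted p from 0.0514 to 0.105). Its log2 fold change of -0.92 was -0.56 without scramble replicate 1. With 1 library left out, 7 or 8 of these mRNAs were called lower, and those lost were mt-Co3 and mt-Nd2. The 0 called higher came with 0 higher at an unadjusted p under 0.05, and DESeq2 and limma also called 0 higher. mt-Cytb, a subunit of complex III, had 2569, 2722 and 2618 CPM in the libraries labelled scramble ASO and 1148, 1238 and 968 CPM in those labelled anti-PGAM ASO (log2 fold change -1.24 ± 0.10 SE, adjusted p = 0.000252). The groups did not overlap for this gene. mt-Nd1, chosen after its value was seen, overlapped between groups with a log2 fold change of 0.01 (adjusted p = 0.949). The ribosomal RNAs of the same genome, also chosen after their values were seen, had log2 fold changes of 1.12 for mt-Rnr1 (adjusted p = 0.000768) and 0.31 for mt-Rnr2 (adjusted p = 0.0683). Mitochondrially encoded genes, ribosomal RNAs included, made up 1.95%, 2.12% and 1.93% of counts against 1.24%, 1.44% and 1.32%. The relation of these messages to the members was not tested.

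Markers of other cell types were low. Summed over each list, CD8 T cell markers (2 genes) lay between 10.8 and 15.7 CPM, B cell markers between 5.64 and 10.4 CPM, mast cell or basophil markers between 4.72 and 7.13 CPM, and myeloid and erythroid markers at or under 3.02 CPM. Of 3 NK cell markers, Klrb1c and Klra8 had 0 counts in all libraries. The most abundant genes were Cd8b1 (8.67 CPM), Cd79a (2.94 CPM), Kit (3.65 CPM), Lyz2 (1.32 CPM) and Alas2 (0.946 CPM). Cd8a was called higher (log2 fold change 1.12, adjusted p = 0.0286) and Kit lower (log2 fold change -1.68, adjusted p = 0.0142), both at a few CPM. The other markers of their lists did not share these directions: Cd8b1 overlapped between groups (log2 fold change -0.20, adjusted p = 0.454), and Cpa3 was higher in every library labelled anti-PGAM ASO (1.09, adjusted p = 0.0526), as were Mcpt8 and Fcer1a, which were under 1 CPM and were not tested. The call of Cd8a was lost without scramble replicate 1 (adjusted p = 0.0989) or anti-PGAM replicate 1 (0.1004), and that of Kit without scramble replicate 1 (0.0506) or anti-PGAM replicate 2 (0.0851).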
